A study of Mus musculus with 8 samples.

Results

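The genes described here were 9 members of the interleukin-1 (IL-1) system: the ligands Il1a, Il1b, Il18 and Il1f9 (also called Il36g), the soluble antagonists Il1rn and Il18bp, the decoy receptor Il1r2, and the signalling receptor chains Il1r1 and Il1rap. They were chosen by name as ligands, antagonists and receptors of the system, and found by Ensembl identifier through GENCODE vM21 symbols. No measured value was in the rule, but earlier results of these data were known when the members were chosen. The count table held 52636 gene identifiers, and all 9 were among them. RNA was sequenced from primary microglia, the resident macrophages of the brain, grown from C57BL/6 wild-type (WT) mice, named in the study's methods as C57BL/6N pups. The cells were shaken off mixed glial cultures of neonatal brains and kept in DMEM with 10% fetal bovine serum and 10 ng/ml CSF-1, a growth factor that microglia need, in both groups. Vehicle cells (4 libraries) were compared with cells given 5 µg/ml lipopolysaccharide (LPS), a bacterial cell wall component that Toll-like receptor 4 recognises, for 24 h (4 libraries). The labels call the libraries of a group biological replicates and do not say whether they came from separate cultures or animals, so p-values measure the spread between these libraries, which may be in part technical.

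IL-1α and IL-1β bind the receptor IL-1R1, which then recruits the accessory chain IL-1RAcP (encoded by Il1rap) and signals through MyD88 and IRAK kinases to NF-κB. IL-1Ra, the product of Il1rn, occupies IL-1R1 without recruiting the accessory chain, and IL-1R2 binds IL-1 but lacks a signalling domain. IL-18 has its own receptor and is neutralised by IL-18BP, while IL-36γ (Il1f9) acts through IL-1RL2 with the same accessory chain. IL-1β and IL-18 are made as precursors that caspase-1 cleaves in inflammasomes, so their RNA is not a measure of secreted cytokine. Microglia and other macrophages are the main producers of IL-1 in the inflamed brain.

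Library totals ranged from 20071921 to 30604447 counts, and 13847 genes, among them 8 of the 9 members, passed the filter on low counts. All 10 microglial markers passed it, with summed levels of 9046 to 10165 CPM in vehicle and 1674 to 2033 CPM in LPS libraries, where CPM is counts per 1e+06 counts after TMM scaling. Of these 10, 8 were called lower after LPS and 0 higher, in the test used below. Tmem119 and Aif1 were not called. Of all tested genes 33.8% were called lower. Vehicle libraries had TMM factors of 1.21 to 1.32 and LPS libraries of 0.701 to 0.833. With the library total as the only scaling, the median log2 fold change of all tested genes moved by −0.68, and the split of calls went from 4191 higher and 4686 lower to 1988 higher and 8457 lower. Fold changes below are therefore relative to the TMM scale. In bulk RNA, more cells of a type and more RNA per cell cannot be told apart.

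Il1a and Il1b lie as neighbours on chromosome 2 (GRCm38; Il1a at chr2:129299610-129309972 and Il1b at chr2:129364570-129371139, both on the minus strand). Il1f9 (chr2:24186476-24193568) and Il1rn (chr2:24336853-24351494), both on the plus strand, belong to a cluster of 6 IL-1 family genes, ligands and antagonists, elsewhere on the same chromosome. Il1r2 (chr1:40074079-40125231) and Il1r1 (chr1:40225080-40317257) lie on the plus strand in a cluster of 6 receptor genes. Il18 (chr9:50554827-50581840, plus strand), Il18bp (chr7:102014885-102018690, minus strand) and Il1rap (chr16:26581704-26730117, plus strand) stand alone. Of the exonic bases of Il1a, 11.2% overlap the antisense gene Gm14023, and whether the counting used strand is not given in the sources used here, so reads there cannot be assigned with certainty. The corresponding overlap was 4.86% or less in the other members. Of 50-base windows, the read length, 9.14% in Il1a, 8.68% in Il1f9 and 3.98% in Il1rap also occur in transcripts of another gene. These include genes overlapping at the same place, as Gm14023 does Il1a.

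The promoter sequences shown are those of the 3 ligand and antagonist genes that reached the highest RNA levels after LPS, together with Il1f9, the member ligand with the fewest vehicle counts. They come from RefSeq (GRCm38.p6), 250 bases up to the transcription start, 5′ to 3′ on the gene's strand; that of Il1rn is 247 bases, at chr2:24345041-24345287 (plus), since 3 exonic bases were left off, and it lies before the middle of the gene's 3 RefSeq starts. The others are chr2:129309973-129310222 (minus) for Il1a, chr2:129371140-129371389 (minus) for Il1b and chr2:24186226-24186475 (plus) for Il1f9. Capitals mark matches to the searched motifs.
Il1a: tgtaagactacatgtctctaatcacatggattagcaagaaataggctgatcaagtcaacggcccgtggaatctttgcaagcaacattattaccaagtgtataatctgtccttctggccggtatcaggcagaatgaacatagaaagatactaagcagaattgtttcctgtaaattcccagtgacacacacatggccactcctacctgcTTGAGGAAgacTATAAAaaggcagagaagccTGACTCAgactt
Il1b: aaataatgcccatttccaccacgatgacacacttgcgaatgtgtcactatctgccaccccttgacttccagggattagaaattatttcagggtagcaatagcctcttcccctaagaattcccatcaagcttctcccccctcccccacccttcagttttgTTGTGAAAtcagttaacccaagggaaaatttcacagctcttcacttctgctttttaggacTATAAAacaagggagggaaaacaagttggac
Il1rn: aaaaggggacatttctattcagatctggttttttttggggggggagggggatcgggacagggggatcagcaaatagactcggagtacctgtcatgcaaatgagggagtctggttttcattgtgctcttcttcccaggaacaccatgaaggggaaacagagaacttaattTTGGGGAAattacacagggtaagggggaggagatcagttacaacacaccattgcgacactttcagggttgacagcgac
Il1f9: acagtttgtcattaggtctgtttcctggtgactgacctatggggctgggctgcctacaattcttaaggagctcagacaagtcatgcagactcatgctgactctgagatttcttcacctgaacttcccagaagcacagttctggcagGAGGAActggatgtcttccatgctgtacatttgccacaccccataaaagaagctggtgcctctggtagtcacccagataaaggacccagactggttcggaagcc

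All 9 members matched a RefSeq promoter window, and 6 motifs were searched on both strands. In the Il1a window a TATA box (TATAAA) stood 32 to 27 bases before the start, an AP-1 motif (TGANTCA) 12 to 6 bases before it, and a C/EBP motif (TTNNGNAA) 43 to 36 bases before it, the last overlapping a PU.1-type motif (GAGGAA). Il1b held TATAAA at nearly the same place, 31 to 26 bases before the start, and a C/EBP motif 91 to 84 bases before it. The Il1rn window held a C/EBP motif 81 to 74 bases before the start, and the Il1f9 window held GAGGAA 104 to 99 bases before it. These motifs are common: of 32851 promoter windows of the same length, 12.4% held TATAAA, 36.8% TTNNGNAA, 23.3% GAGGAA and 6.75% TGANTCA. The NF-κB consensus occurred in 7.25% of all windows and in none of the 4 printed ones, with 1 match among the members' windows, before a second start of Il1r1. Another Il1rn window held TGANTCA, 141 to 135 bases before its start. The interferon-stimulated response element (ISRE) occurred in 2.98% of all windows and in none of the members'. No match means only that these letters are not in these windows.

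LPS raised the RNA of every tested member, ligands, antagonists and receptors alike. All 8 rose in edgeR's quasi-likelihood test at an adjusted p under 0.05, and in all 9 members the lowest LPS library lay above the highest vehicle library. Il1f9 and Il1r1 passed the filter on low counts only through their LPS libraries, so their call was fixed in part by the filter. With at least 10 counts required in every library, 6 members were tested and all 6 rose. Calls of a rise were made in 30.3% of the 13847 tested genes (64.1% in either direction), and 28.7% of them had all LPS libraries above all vehicle libraries (60.2% had no overlap in either direction). The median log2 fold change was 6.22 over the 8 tested members and −0.11 over all tested genes. Il1f9, whose vehicle counts were near 0, lies above this median by its fit and by its count ratio, so its exact value does not set the median. Il1r1 does help to set it, since the median lies between Il1r1 (6.07) and Il1b (6.38). Under other settings of the fit the value of Il1r1 ranged from 5.39 to 6.98. A rise of at least 2 on the log2 scale was called in 7.08% of tested genes and in 7 of the 8 members, all but Il1rap. With the library total as the only scaling, Il18 rose by 1.90 and was also under this size. The members thus spread over a wide range of sizes, from 2.58-fold for Il1rap to 920-fold for Il1a.

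**Figure D1:**
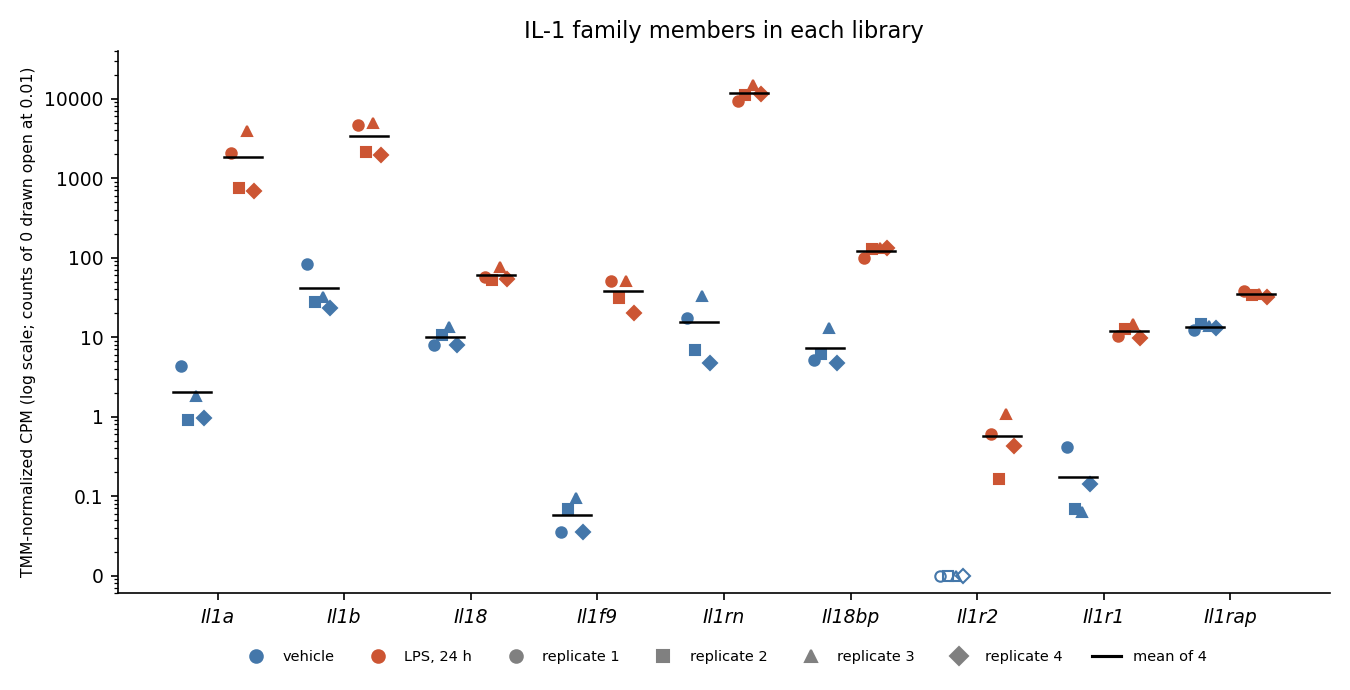
TMM-normalized CPM (log axis) of the 9 IL-1 family members in the 4 vehicle and 4 LPS libraries; each point is a library (blue vehicle, red LPS, shape by replicate number), and lines are group means. In every member the LPS points lie above the vehicle points, and the open points mark the vehicle libraries in which Il1r2 had no count.

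Among the ligands, Il1a, which encodes the IL-1 that is active as a precursor and is released from damaged cells, had 4.38, 0.900, 1.84 and 0.959 CPM in vehicle replicates 1 to 4. In LPS replicates 1 to 4 it had 2069, 758, 3929 and 689 CPM. The groups were far apart, yet within each group the highest library had several times the level of the lowest. The log2 fold change was 9.85 ± 0.91 (SE, n = 4 per group, edgeR adjusted p = 1.26e-05), 29th of all tested genes. Its place above Il1rn (9.55 ± 0.74) is within the error and turned with the replicate block (9.77 against 9.90), without vehicle replicate 3 (9.84 against 10.28) and without LPS replicate 3 (9.18 against 9.42). The value was 10.55 without vehicle replicate 1 and 9.18 without LPS replicate 3, the highest library of each group.

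Il1b, the classical secreted IL-1, was already present in vehicle, with 82.3, 27.4, 32.3 and 23.0 CPM in replicates 1 to 4. LPS libraries held 4671, 2103, 5003 and 1926 CPM in the same order. Replicate 1 was the highest vehicle library, as it was for Il1a, and LPS replicates 1 and 3 were again the higher pair. Il1b rose by 6.38 ± 0.58 on the log2 scale (SE, n = 4 per group, edgeR adjusted p = 1.19e-05), an 83.0-fold change, and by 6.98 without vehicle replicate 1.

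Il18, the inflammasome-processed ligand that drives interferon-γ production, had 7.88, 10.8, 13.4 and 7.99 CPM in vehicle replicates 1 to 4. It had 57.2, 52.9, 77.3 and 53.3 CPM in LPS replicates 1 to 4. Replicate 3 was the highest library of both groups, and the spread was narrow beside that of Il1a and Il1b. The rise was 6.00-fold (log2 2.59 ± 0.21, SE, n = 4 per group, edgeR adjusted p = 5.28e-06), the smallest among the 4 ligands.

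Il1f9 encodes IL-36γ, a ligand best known from epithelia. Its vehicle counts were 1, 2, 3 and 1 in replicates 1 to 4, at or under 3 in every library, the level treated here as the floor. LPS counts were 861, 578, 1078 and 371, or 51.5, 31.5, 50.3 and 20.1 CPM. Every LPS library thus stood far above every vehicle library. The ratio of its summed, scaled counts was 645 (95% interval 312 to 1605, counting error only), and edgeR gave an adjusted p of 4.26e-07.

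Of the antagonists, Il1rn, encoding IL-1Ra, had 17.6, 6.88, 32.9 and 4.76 CPM in vehicle replicates 1 to 4. LPS replicates 1 to 4 had 9247, 11136, 14829 and 11497 CPM. Vehicle libraries differed several-fold among themselves whereas LPS libraries lay close together, with coefficients of variation of 82.9% and 19.9%. The log2 fold change was 9.55 ± 0.74 (SE, n = 4 per group, edgeR adjusted p = 4.44e-06), or 751-fold, and 10.28 without vehicle replicate 3. After LPS, Il1rn took 0.914% ± 0.111 (SD, n = 4) of all counts of a library and ranked 6th to 9th of all genes by CPM.

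Il18bp, the soluble IL-18 antagonist, had 5.15, 6.12, 13.2 and 4.79 CPM in vehicle replicates 1 to 4, with replicate 3 the highest as for Il1rn. LPS replicates 1 to 4 had 98.7, 128, 131 and 134 CPM, replicate 1 being the lowest. It rose 16.7-fold (log2 4.07 ± 0.33, SE, n = 4 per group, edgeR adjusted p = 5.51e-06). Vehicle replicate 3 also had the highest summed level of border macrophage markers, 1055 against 576 to 660 CPM in the other vehicle libraries, and the lowest of oligodendrocyte precursor markers, 23.9 against 69.8 to 104 CPM. The part of these cells in the levels of Il1rn and Il18bp was not tested. Over all LPS libraries border macrophage markers summed to 43.5 to 76.9 CPM, below every vehicle library. Most of that sum was Mrc1, which fell with Pf4 and F13a1, while Cbr2 rose (log2 2.22, edgeR adjusted p = 0.00760) and Lyve1 was at or under 3 counts in every library.

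Il1r2, the decoy receptor, had no count in any vehicle library. It had 10, 3, 23 and 8 counts in LPS replicates 1 to 4 (0.598, 0.163, 1.07 and 0.433 CPM) and did not pass the filter on low counts. Its mean LPS level was at least 5.53-fold higher than a floor of 3 counts per vehicle library. In a fit of 25424 genes without the filter its edgeR adjusted p was 3.82e-04. The decoy thus had 3 to 23 counts in the LPS libraries and none in any vehicle library. LPS replicate 2, with 3 counts, did not exceed the floor. Neutrophils are known to carry Il1r2. In LPS libraries the summed level of 8 neutrophil markers was 713 to 1757 CPM, against 2.01 to 14.6 in vehicle. Of these 8, S100a8 and Mmp8 rose, while no library held more than 3 counts of Ly6g, Retnlg, Ngp, Ltf or S100a9. Retnlg and S100a9 had no count in any library, which cannot tell a gene left uncounted from one not expressed. Camp, which did not pass the filter, had 3, 0, 1 and 0 counts in vehicle and 50, 6, 11 and 6 in LPS replicates 1 to 4. The part of such cells in the counts of Il1r2 was not tested.

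The signalling chain Il1r1 was near the floor in vehicle, with 12, 2, 2 and 4 counts in replicates 1 to 4 (0.420, 0.0692, 0.0634 and 0.142 CPM). LPS counts were 172, 235, 311 and 182 (10.3, 12.8, 14.5 and 9.85 CPM). Of the vehicle libraries only replicate 1 had more than 4 counts. The log2 fold change was 6.07 ± 0.45 (SE, n = 4 per group, edgeR adjusted p = 3.43e-06), or 67.2-fold, and 6.98 without vehicle replicate 1. Fibroblasts, astrocytes and endothelial cells are known to express Il1r1. Summed fibroblast markers were 0.497 to 4.31 CPM in vehicle and 5.30 to 21.4 in LPS, and Dcn, 1 of the 2 tested of 6, was the only one called. Summed raw counts of the collagen genes that define fibroblasts were lower in LPS than in vehicle. They were 7 against 65 for Col1a1, 2 against 48 for Col1a2 and 2 against 35 for Col3a1, while those of Lum were 44 against 5. Vehicle replicates 1 and 3 held most of the collagen counts. Col1a1 had 15, 2, 47 and 1 counts in vehicle and 3, 2, 2 and 0 in LPS replicates 1 to 4. The groups overlapped for each of these collagen genes and for Lum, and none of them passed the filter on low counts. Summed astrocyte markers were 20.5 to 46.6 CPM in vehicle and 41.0 to 124 in LPS, with Gja1 the only one of 8 that rose, while Gfap, Aqp4 and Aldh1l1 fell and the other 4 had lower LPS means without passing the test. Summed endothelial markers were 31.2 to 73.9 and 163 to 254 CPM, and Pecam1, Cdh5 and Flt1 rose. Of the 4 endothelial markers not tested, no library held more than 3 counts of Cldn5, Tek or Esam, and Egfl7 had 4, 24, 25 and 11 counts in vehicle and 3, 3, 1 and 3 in LPS replicates. The part of such cells in the rise of Il1r1 was not tested.

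Il1rap, the accessory chain that the IL-1, IL-33 and IL-36 receptors share, was the steadiest member. Vehicle replicates 1 to 4 had 12.2, 14.8, 13.7 and 12.96 CPM, and LPS replicates 1 to 4 had 37.8, 33.6, 34.9 and 32.2 CPM. Coefficients of variation were 8.24% and 6.80%, the lowest of the tested members in either group. It rose 2.58-fold (log2 1.37 ± 0.10, SE, n = 4 per group, edgeR adjusted p = 4.12e-06), and by 0.69 on the log2 scale with the library total as the only scaling (edgeR adjusted p = 4.94e-04).

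Levels of different genes were compared as CPM per kilobase of exon. In vehicle, Il1b was the most abundant member (21.6 ± 14.5, SD, n = 4), followed by Il18 (9.71 ± 2.55), Il1rn (2.81 ± 2.33), Il18bp (2.41 ± 1.30), Il1rap (1.18 ± 0.0972) and Il1a (1.02 ± 0.825). Il1f9 (0.0356), Il1r1 (0.0273) and Il1r2 (0) came last. The ranges of Il1b and Il18 overlapped, although Il1b was the higher in 4 of 4 libraries. Il1rn and Il18bp, Il1rap and Il1a, and Il1f9 and Il1r1 were neighbours whose ranges also overlapped. The place of Il1rap depends on the length used. By the longest protein-coding transcript it stood at 2.97 ± 0.244 in vehicle, with Il18bp at 2.81 ± 1.52 and Il1a at 1.02 ± 0.825.

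After LPS the order changed, with Il1rn at the top (2110 ± 419 CPM per kilobase, SD, n = 4), then Il1b (1796 ± 858) and Il1a (943 ± 769). Ranges of Il1rn and Il1b overlapped, with Il1rn the higher in 3 of 4 libraries, and those of Il1b and Il1a overlapped, with Il1b the higher in 4 of 4. Well below them came Il18 (58.4 ± 11.2), Il18bp (40.6 ± 5.35) and Il1f9 (23.3 ± 9.25), without overlap between neighbours. The receptors were the least abundant, Il1rap at 3.05 ± 0.207, Il1r1 at 1.86 ± 0.344 and Il1r2 at 0.297 ± 0.200. The union of exons of Il1rn includes a retained intron. By the longest protein-coding transcript Il1rn stood at 4720 ± 938 and Il1b at 2526 ± 1207 CPM per kilobase after LPS.

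Ratios within a library do not depend on library scaling and are given without a test. The log2 ratio of Il1rn to Il1b, antagonist to agonist, was −3.76, −3.53, −1.51 and −3.81 in vehicle replicates 1 to 4, so that the antagonist was the less abundant in all. In LPS replicates 1 to 4 it was −0.55, 0.87, 0.03 and 1.04, and the groups did not overlap. The mean moved from −3.15 ± 1.10 to 0.35 ± 0.74 (SD, n = 4), from an antagonist 8.90-fold below the agonist to about equal levels. By coding length the linear ratios were 0.179 in vehicle and 2.02 in LPS.

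The log2 ratio of Il1rn to Il1a was 0.52, 1.45, 2.67 and 0.82 in vehicle and 0.67, 2.39, 0.43 and 2.57 in LPS replicates 1 to 4. The groups overlapped, with means of 1.37 ± 0.95 and 1.52 ± 1.12 (SD, n = 4), and LPS replicates 1 and 3 had the lower ratios. Il1rn exceeded Il1a in 8 of 8 libraries.

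Il1b exceeded Il1a by 4.28, 4.98, 4.18 and 4.64 on the log2 scale in vehicle replicates 1 to 4 and by 1.22, 1.52, 0.40 and 1.53 in LPS replicates 1 to 4. The excess of Il1b thus fell from 23.0-fold to 2.25-fold, with no overlap. For Il18bp to Il18 the log2 ratio was −2.17, −2.37, −1.58 and −2.29 in vehicle and −0.76, −0.28, −0.80 and −0.23 in LPS replicates 1 to 4. It moved upward without overlap, from a mean of −2.10 ± 0.36 to −0.52 ± 0.31 (SD, n = 4), yet the antagonist stayed below its ligand in 8 of 8 libraries. The decoy Il1r2 had a log2 ratio to Il1r1 of −2.37, −4.55, −2.02 and −2.77 in LPS replicates 1 to 4, a mean 7.61-fold below the signalling receptor. In single libraries it lay 4.05-fold to 23.5-fold below, from only 3 to 23 counts of Il1r2.

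**Figure D2:**
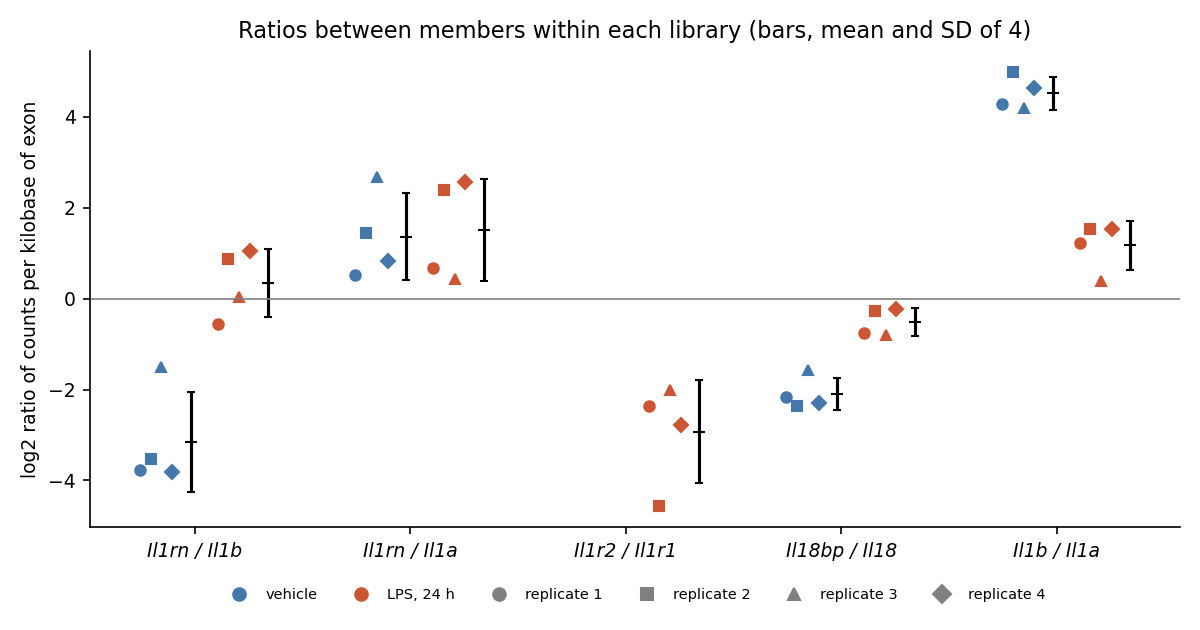
Log2 ratio of CPM per kilobase of exon between pairs of members in each library (points, blue vehicle and red LPS, shape by replicate number; bars, mean and SD of 4 libraries); the decoy ratio is shown for LPS only, since Il1r2 had no vehicle count. The groups separate for Il1rn to Il1b, Il18bp to Il18 and Il1b to Il1a, and overlap for Il1rn to Il1a.

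The members shared the direction of the spread in some libraries and not in others. On the log2 scale, LPS replicates 1 and 3 lay above their group mean in Il1a (by 0.53 and 1.45), Il1b (by 0.58 and 0.68) and Il1f9 (by 0.53 and 0.49). In Il18bp LPS replicate 1 lay below it (−0.30), and in Il1rn replicate 1 lay below (−0.32) and replicate 3 above (0.37). LPS replicate 3 also lay above the mean in Il18 (0.38), Il1r1 (0.31), Il18bp (0.10) and Il1rap (0.013), and so in all 8 tested members. This library had the lowest TMM factor, 0.701 against 0.816 to 0.833 in the other LPS libraries. The part of the scaling in this shift was not tested. In vehicle, replicate 1 was high in Il1a (1.37) and Il1b (1.19), while replicate 3 was high in Il1rn (1.48) and Il18bp (0.97). Il1r1 also had its highest vehicle value in replicate 1 (1.17), but from 12 counts against 2 to 4 in the other vehicle libraries. LPS replicate 1 had the highest sum of the astrocyte list (124 against 41.0 to 49.3 CPM), of which Gja1 gave most (1640 counts against 531 to 756 in the other LPS libraries). It also had the highest sum of the neutrophil list (1757 against 713 to 974 CPM), from S100a8 and Mmp8. LPS replicate 3 had the highest sum of the fibroblast list (21.4 against 5.30 to 7.52 CPM), mostly from Dcn (416 counts against 79 to 124). The part of these genes or of such cells in the members' spread was not tested.

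**Figure D3:**
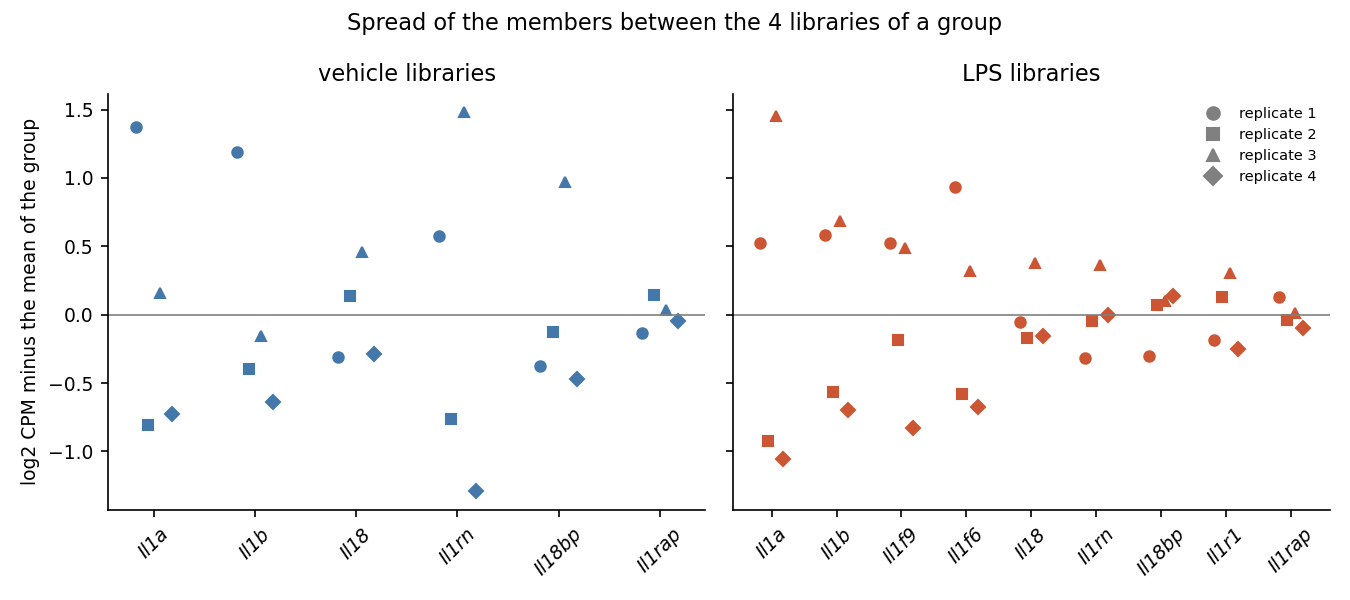
Log2 CPM minus the group mean (vertical axis) in the 4 vehicle libraries (left) and the 4 LPS libraries (right), shape by replicate number; Il1f9 and Il1r1, with few vehicle counts, are drawn for LPS only, together with Il1f6, the gene of IL-36α. LPS replicates 1 and 3 are high for Il1a, Il1b, Il1f9 and Il1f6, and vehicle replicate 3 is high for Il1rn (1.48) and Il18bp (0.97).

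Of 46 other genes of the pathway, 35 were tested, of which 23 rose, 5 fell and 7 did not pass the test, with a median log2 fold change of 0.86. Shares of all tested genes that rose and fell were 30.3% and 33.8%. With the library total as the only scaling the counts were 17 higher and 12 lower. Il1f6 and Il1rl1, both called, passed the filter on low counts through a single group only. With at least 10 counts required in every library, which left both out, 22 genes were higher and 5 lower.

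The remaining IL-1 family genes were 5, listed as ligands without separating agonists from antagonists. Of these, Il1f6 (Il36a), which encodes IL-36α, had no count in any vehicle library. It had 803, 308, 671 and 290 counts in LPS replicates 1 to 4, with replicates 1 and 3 the higher as for Il1f9. Its LPS level was at least 273-fold above a floor of 3 counts per vehicle library (edgeR adjusted p = 3.36e-05). Il1f6 passed the filter on low counts only through its LPS libraries, so its call was fixed in part by the filter. Il33, the alarmin of barrier tissues, had 0, 1, 0 and 1 counts in vehicle and 5, 6, 20 and 11 in LPS libraries and did not pass the filter on low counts. In the fit of 25424 genes without the filter its edgeR adjusted p was 3.70e-04. Its LPS to vehicle ratio was 32.8 (95% interval 8.53 to 280, counting error only). Il1f5 had at most 4 counts in any library, and Il1f8 and Il1f10 had none.

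The remaining receptors did not move together. Il1rl1 (ST2, the IL-33 receptor) had 40, 95, 135 and 108 counts in vehicle replicates 1 to 4 and 4, 0, 1 and 0 in LPS replicates 1 to 4, a log2 fold change of −5.47 ± 0.75 (SE, n = 4 per group, edgeR adjusted p = 1.53e-04). Without LPS replicate 1 the value was −7.18, with all remaining LPS libraries at or under 1 count. Il1rl1 passed the filter on low counts only through its vehicle libraries, so its call was fixed in part by the filter. Il1rl2, the IL-36 receptor, rose by 1.83 ± 0.37 (edgeR adjusted p = 0.00187), from 3.18 to 9.21 CPM in vehicle to 12.3 to 27.3 CPM in LPS. The ligand Il1f9 and the receptor Il1rl2 were thus both higher after LPS. Sigirr, an inhibitory receptor, had 10, 10, 24 and 4 counts in vehicle and 0, 0, 3 and 0 in LPS replicates, a vehicle to LPS ratio of 10.2 (95% interval 3.30 to 51.4, counting error only). It did not pass the filter, and in the fit without it the edgeR adjusted p was 0.0131. All 3 of its LPS counts came from replicate 3, so without that library there is no finite ratio. Il18r1, the ligand-binding chain for IL-18, had 1 count in all 8 libraries together, and Il18rap, its partner, had 0.945 to 3.30 CPM in vehicle and 0.762 to 2.69 in LPS (log2 −0.31, edgeR adjusted p = 0.591). Il1rapl1 had at most 13 counts and Il1rapl2 at most 1 in any library.

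Of 12 genes of precursor processing, 9 were tested, of which 7 rose and 1 fell. Casp4 (log2 2.81), the sensor of cytosolic LPS, Nlrp3 (2.63), the inflammasome sensor, and Casp1 (2.38), the IL-1β and IL-18 protease, led the rise. Pycard, the adaptor that joins Nlrp3 to Casp1 and whose exonic bases overlap the antisense gene Gm45205 by 12.8%, fell by 1.57 on the log2 scale, from 38.1 to 49.1 CPM in vehicle to 10.7 to 16.6 CPM in LPS (edgeR adjusted p = 2.44e-05). Of 15 signalling genes, 9 rose and 3 fell. Irak3 (log2 3.78), a kinase-like inhibitor of IRAK signalling, Peli1 (2.44), a ubiquitin ligase, and Irak2 (2.25) rose most, and Tab1, a partner of the kinase TAK1, had the lowest value (−0.97, edgeR adjusted p = 0.00129). Of 7 feedback genes, 5 rose, led by Tnfaip3 (4.64), Zc3h12a (3.74) and Nfkbiz (3.60), inhibitors or modulators of NF-κB output. Cyld did not pass the test (0.19, edgeR adjusted p = 0.386), and its sign turned with the library total as the only scaling (−0.51) and without LPS replicate 3 (−0.037). The members' median of 6.22 lay above the highest log2 fold change of these 3 groups.

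**Figure D4:**
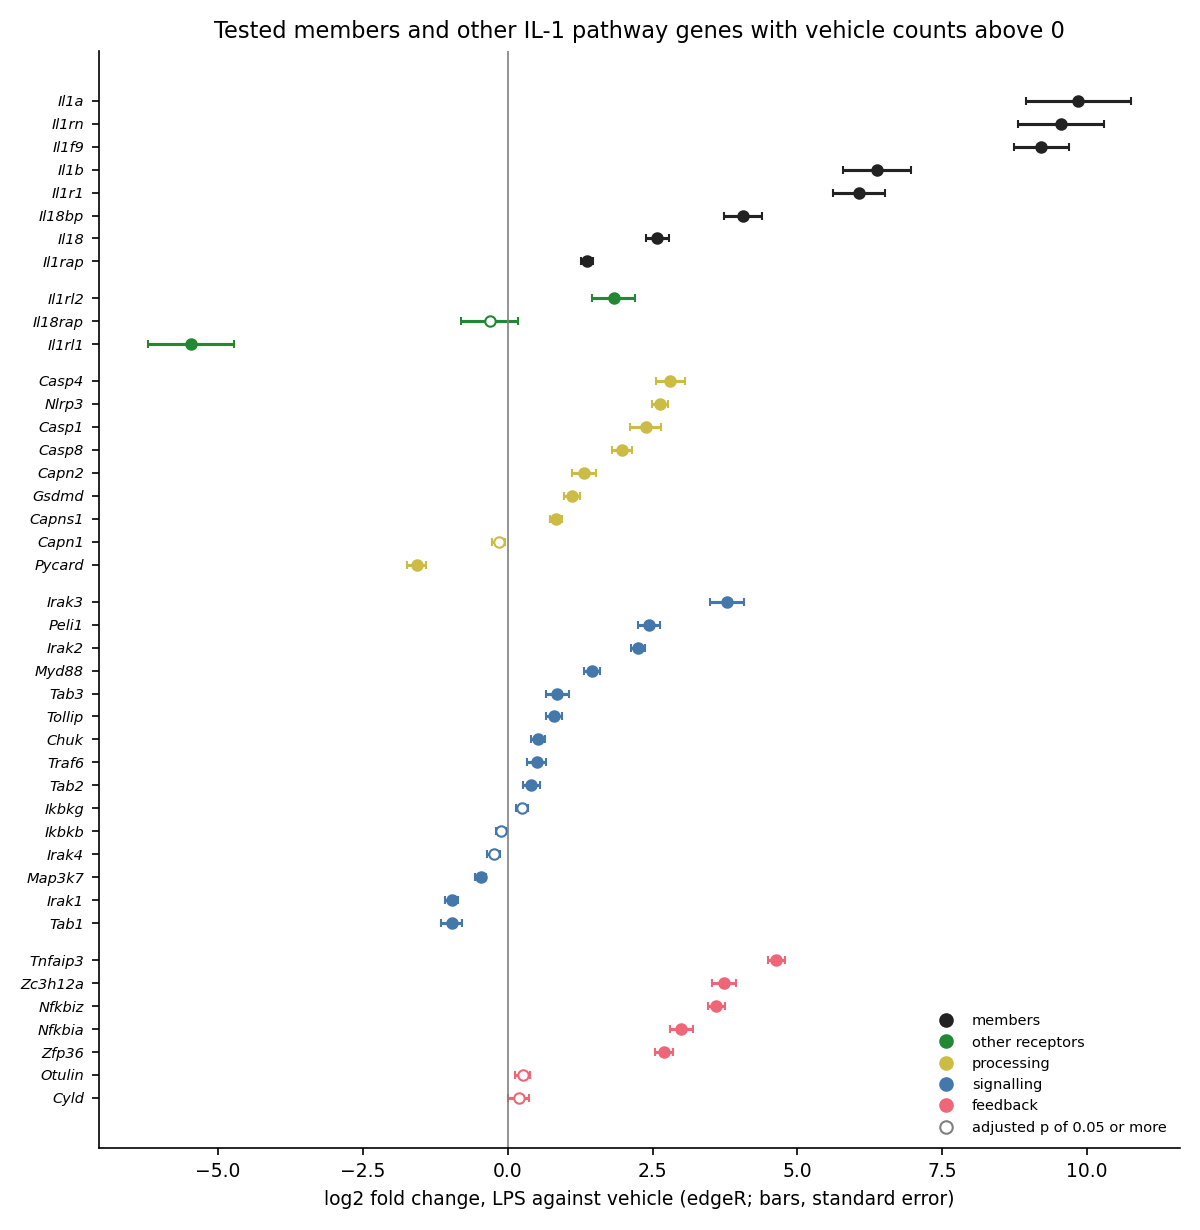
Log2 fold change of LPS against vehicle with its SE (edgeR, 4 libraries per group) for the tested members and pathway genes with vehicle counts above 0, by role; open circles did not pass the test. Members range from 1.37 (Il1rap) to 9.85 (Il1a); the value of Il1f9, with vehicle counts of 1 to 3, depends on the prior count of the fit.

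For 4 members, the genes with the most similar profile over the 8 libraries were sought among 8382 genes, by the root-mean-square difference of log2 CPM after centring each gene on its mean. Nearest to Il1a were Arg1 (0.43), which encodes arginase, 2010005H15Rik (0.60) and Tarm1 (0.61). Nearest to Il1b were A930007I19Rik (0.39), the neutrophil chemokine gene Cxcl2 (0.45) and the adenylate kinase gene Ak4 (0.50). Il1rn was closest to the nucleoside transporter gene Slc28a2 (0.39), then Slfn4 (0.54) and 2010005H15Rik (0.59). Il18bp had the nearest neighbours of the 4, I830077J02Rik (0.13), Tmem171 (0.14) and the class Ib MHC gene H2-T22 (0.21). These values describe likeness over vehicle and LPS libraries that differ in all of these genes.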

How the data were processed

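Microglial RNA was sequenced as single-end reads of 50 bases. The authors aligned reads with GSNAP to GRCm38 and deposited raw counts of uniquely aligned reads per Ensembl gene, made with HTSeqGenie and not normalized. The library kit and sequencer differ between the labels and the paper. Whether counting used strand, and the annotation release, are not given in the sources used here. All 8 columns were mapped to a sample by their names.

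Symbols, exons and positions came from GENCODE vM21. Differential expression was tested with edgeR 4.0.16 in R 4.3.3 (TMM, filterByExpr with minimum count 10 and minimum total 15, quasi-likelihood test, two-sided) on all 8 libraries, and p-values were adjusted by Benjamini-Hochberg over the 13847 genes tested, with a threshold of 0.05. The fits were tested on simulated data. Log2 CPM used a prior count of 2. Levels between genes used the union of exons. Intervals of count ratios were exact 95% intervals and, like the floor of 3 counts, cover counting error only. Tables were made in Python 3.11.15 with pandas 2.3.3, numpy 2.4.6 and scipy 1.17.1.

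The genes named were all 9 members, every other ligand and receptor of the pathway list, in each of its 3 remaining groups the 3 highest and the lowest by log2 fold change, and for 4 members the 3 nearest profiles. The members, lists and tests were chosen with earlier results of these data known. Alternatives were DESeq2 1.42.0, other scalings and filters, a replicate block, leaving out each library, and other gene lengths. Scaling by the library total and lengths of coding transcripts were added after seeing the data.

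Replicate numbers come from the labels. Same-numbered vehicle and LPS libraries deviated together over 8382 genes (r of 0.130 to 0.361 in the 4 pairs). Vehicle replicate 4, however, had a slightly higher r with LPS replicate 2 (0.141) than with LPS replicate 4 (0.130). The mean r of the same-numbered pairs was 0.214, and that of the next best arrangement 0.210. The values thus pair replicates 1 and 3 by number and do not settle the pairing of replicates 2 and 4. Every fold change, SE and p printed in the results is nevertheless from the fit without a block unless the block is named, and the blocked fit was an alternative. No pair of libraries held identical counts.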

Additional observations from a re-analysis of the deposited data

Results flagged for a closer look

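In 7 of 57 groups of 4 libraries examined, 1 library stood apart from the other 3 by Dixon's criterion, which flags about 5% of groups by chance. Among the members, Il18bp in LPS replicate 1 was low (98.7 CPM, others 128 to 134), and the log2 ratio of Il1rn to Il1b in vehicle replicate 3 was high (−1.51, others −3.81 to −3.53).

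Among pathway genes, Pycard was high in vehicle replicate 3 (49.1 CPM, others 38.1 to 38.9) and Irak3 in LPS replicate 1 (442 CPM, others 289 to 304). Irak2 was low in LPS replicate 3 (216 CPM, others 261 to 270), as was Nfkbiz (568 CPM, others 709 to 717). Tab1 was high in vehicle replicate 1 (26.5 CPM, others 21.0 to 21.9).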

How the results depend on the processing

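Fold changes of the 8 tested members were computed under 15 alternatives, and all 118 values kept their direction and an adjusted p under 0.05. Il1f9 and Il1r1 gave no value where at least 10 counts were required in every library. With the replicate block, 8 members rose and none fell, the pathway list gave 23 higher and 5 lower, and all genes gave 4110 higher and 4934 lower. The block by replicate number thus changed no call of a member. The SE became smaller for some members, 0.43 against 0.91 for Il1a and 0.29 against 0.58 for Il1b. With the library total as the only scaling, all genes gave 1988 higher and 8457 lower, 19.0% of calls higher against 47.2%, and the pathway list 12 lower. With upper quartile scaling the pathway list had 8 lower, and all genes 3589 higher and 5481 lower.

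Cyld, not called, turned to −0.51 with the library total, and leaving out a library moved it between −0.037 and 0.30. Il18rap, not called, ranged from −0.67 to 0.13 when a library was left out. By the longest transcript the log2 ratio of Il1rn to Il1a was 2.48 in vehicle, and by the longest coding transcript 2.53 in vehicle and 2.68 in LPS, while that of Il1b to Il1a was 5.01 in vehicle under both. Lengths alone moved these values. Counts of at most a few reads limit Il1r2, Il1f9 and Il1r1 in vehicle and most of the other genes listed as ligands.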
